A study of Mus musculus with 6 samples.

Results

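Interferon response genes are described here across 6 liver arrays of fed and fasted mice. The 39 genes are a list of interferon receptors, signalling factors, sensors and antiviral effectors. The list was chosen with earlier results of these data known, so shares of its members are descriptions. Of these, 36 of the 18193 genes measured on the arrays were present on probe sets that name a single gene, and each was read on its brightest such probe set. Isg15 appears only on a probe set that names several genes, and Oas1g and Ifi44 were not analysed here. The mice were 8-week-old C57BL/6J males on normal chow. They formed 3 groups of 2 arrays, which were fed wild-type mice, wild-type mice without food for 24 h, and Cnot3+/- mice without food for 24 h. The fasted mice were housed singly, and no group combined Cnot3+/- with feeding. Cnot3 belongs to the CCR4-NOT deadenylase, the machinery that shortens poly(A) tails and so starts mRNA decay. Arrays within a group are biological replicates by their labels, which do not describe the Cnot3 allele further.

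Interferons bind receptors on the cell surface and signal through Janus kinases to STAT and IRF transcription factors. Type I interferons act through Ifnar1 and Ifnar2, and a complex that holds Stat2 and Irf9 then binds interferon-stimulated response elements in promoters. Interferon gamma acts through Ifngr1 and Ifngr2 and on genes with gamma-activated sites. The induced genes sense foreign RNA, degrade it, block viral entry or exit, or, in the case of Usp18, damp the signal. In liver, hepatocytes and resident macrophages (Kupffer cells) both respond to interferons and keep a low level of these genes without infection.

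A larger share of the listed genes than of all genes has the letters of the response element before its start, and the windows below are shown for members whose values are described further on. RefSeq's table (GRCm38.p6) holds gene starts for 31 of the 39 genes, and the 250 bases before each start were searched. The response element core was taken as GAAA, any 2 bases and GAAA, which reads TTTC, any 2 bases and TTTC on the other strand, and the gamma-activated site as TTCNNNGAA, which reads the same on both. The element core was found for 14 of the 31 genes, 45.2% of them, against 3.46% of all 27025 genes in the table. The gamma-activated site was found for 8 of 31, 25.8%, against 8.13% of all genes. In the sequences that follow, written 5′ to 3′ on the gene's strand, capitals mark the response element core, except for Ifnar2, where they mark the gamma-activated site.
Rsad2: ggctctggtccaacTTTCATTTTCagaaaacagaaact
Gbp3: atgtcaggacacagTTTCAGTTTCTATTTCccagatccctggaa
Oas1a: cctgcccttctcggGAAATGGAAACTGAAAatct
Ifit1: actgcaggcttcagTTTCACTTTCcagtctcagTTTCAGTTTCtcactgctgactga
Bst2: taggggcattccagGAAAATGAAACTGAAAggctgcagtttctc
Ifnar2: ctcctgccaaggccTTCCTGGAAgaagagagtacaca
The windows lie at chr12:26456549-26456586 (minus strand) for Rsad2, chr3:142559985-142560028 (plus) for Gbp3, chr5:120907526-120907559 (minus) for Oas1a, chr19:34640771-34640827 (plus) for Ifit1, chr8:71537573-71537616 (minus) for Bst2 and chr16:91372555-91372591 (plus) for Ifnar2. The Gbp3 window belongs to 1 of its 2 listed starts. Gbp3, Oas1a and Bst2 hold overlapping copies of the core, Ifit1 holds 2 separate copies, and in Bst2 a gamma-activated site overlaps the core. No response element core was found in these windows for Ifih1, Ifnar2, Ifi35 or Oasl1. A match says only that the letters are present.

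Levels are log2 values on which a step of 1 is a doubling, and the medians of the 6 arrays over all probe sets lay between 5.59 and 5.64. Of the 36 members, 32 had a mean level over the 6 arrays above 5.62, the mean of those medians. The other 4, Mx1, Oas3, Ifit2 and Oasl2, were at or under it and were not shown to be above background. Where both group means lie at or under 5.62, the size of a difference is not known. Where only the lower mean does, the difference is a lower bound in size. The hepatocyte markers Alb, Apoa1, Ttr, Cps1, Fgb, Tat and Hnf4a had mean levels from 13.09 to 15.20. Cnot3 itself read 9.45 and 9.60 on the fed, 9.27 and 9.32 on the fasted wild-type and 9.40 and 9.16 on the Cnot3+/- arrays. Its level therefore does not check the genotype, and directions between genotypes rest on the labels.

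**Figure D1:**
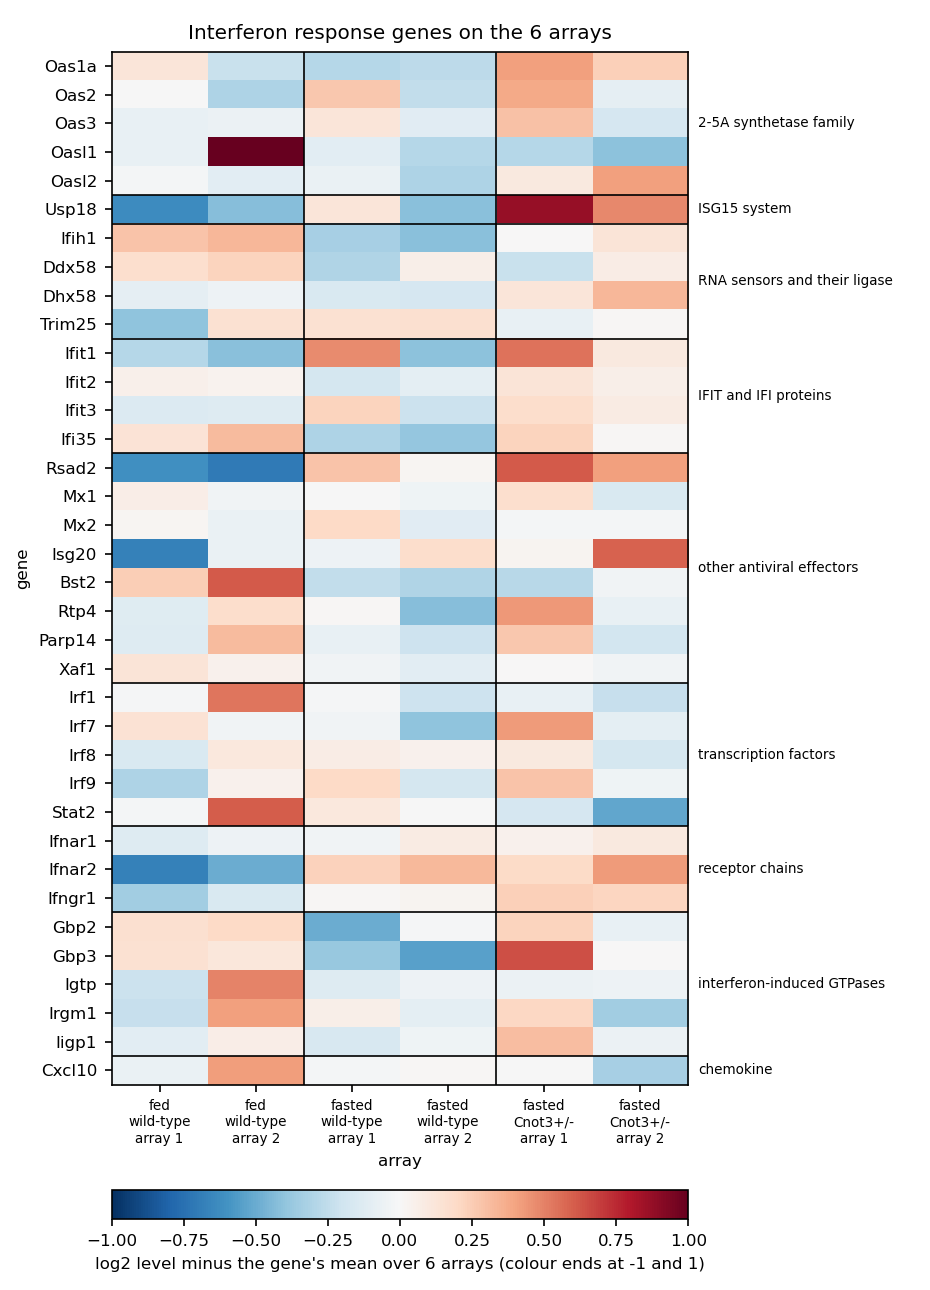
Heat map of the 36 measured interferon response genes (lines, grouped by role) on the 6 arrays (columns). Colour is the log2 level minus the gene's mean over the 6 arrays, and values past -1 or 1 take the end colour, which applies to Oasl1 on fed array 2; Rsad2 and Ifnar2 are low on both fed arrays, and Usp18 is high on both Cnot3+/- arrays.

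The first comparison sets wild-type mice after the 24 h fast against fed wild-type mice. After the fast the interferon receptor chain Ifnar2 and the antiviral enzyme Rsad2 were higher, by 1.82-fold and 1.75-fold, and the RNA sensor Ifih1 was lower, by 1.61-fold. These were the only members called by limma at a Benjamini-Hochberg adjusted p under 0.05, 2 of 36 higher and 1 of 36 lower. Over all genes 5.02% were called, 1.87% higher and 3.15% lower, against 5.56% and 2.78% of the members. The members' shares rest on 2 genes and 1 gene, and a difference from the genes at large was not tested. The median log2 difference of the 36 members was -0.12, against 0.02 over all genes. Differences were above 0 for 14 and below 0 for 22 of the 36, against 54.7% of all genes above 0.

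Among the receptor chains, Ifnar2, the signalling subunit of the type I receptor, read 10.83 and 11.00 in fed liver, 11.73 and 11.83 in fasted wild-type and 11.69 and 11.93 in fasted Cnot3+/- liver. All 4 fasted arrays lie above both fed arrays, whichever the genotype. The fasting difference was 0.87 (log2, SE 0.14, limma adjusted p = 0.0179, n = 2 arrays in each group). Its other probe sets, both dimmer, differed by 0.24 and 0.06 with unadjusted limma p values of 0.0943 and 0.802, and with the mean over its 3 probe sets the difference was 0.39 (adjusted p = 0.104). The call for Ifnar2 thus rests on its brightest probe set. Ifnar1, the partner chain, read 8.30 and 8.38 in fed, 8.40 and 8.51 in fasted wild-type and 8.47 and 8.53 in Cnot3+/- liver, a fasting difference of 0.12 (SE 0.12). Ifngr1, the ligand-binding chain for interferon gamma, read 7.69 and 7.88, then 8.05 and 8.06, then 8.27 and 8.25. Its fasting difference of 0.27 (SE 0.12, adjusted p = 0.29) did not pass, although the groups did not overlap. Non-overlap was common: 27.1% of all genes were higher and 23.7% lower without overlap after the fast, against 6 and 12 of the 36 members (16.7% and 33.3%).

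The transcription factors of the list did not pass the test. Irf1, an activator of many interferon gamma targets, read 8.98 and 9.53 in fed liver, 8.99 and 8.79 in fasted wild-type and 8.92 and 8.76 on the Cnot3+/- arrays. Stat2, part of the type I signalling complex, read 7.84 and 8.47, then 7.96 and 7.85, then 7.69 and 7.33. For both genes fed array 2 stands above the other arrays, while fed array 1 lies at or under a fasted wild-type array, so these groups overlap. Irf7, which amplifies type I interferon production, read 8.54 and 8.36 in fed, 8.36 and 7.99 in fasted wild-type and 8.82 and 8.29 in Cnot3+/- liver. Irf9, the DNA-binding partner of Stat2, read 7.61 and 7.97, then 8.12 and 7.74, then 8.20 and 7.87. Irf8, a factor of myeloid cells, read from 6.73 to 7.01 over the 6 arrays, and its groups overlap. The fasting differences of the 5 factors ran from -0.37 to 0.14, with adjusted p values of at least 0.374.

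Among the RNA sensors, Ifih1, which encodes the long double-stranded RNA sensor MDA5, fell. It read 9.74 and 9.79 in fed liver, 9.12 and 9.04 in fasted wild-type and 9.46 and 9.58 in fasted Cnot3+/- liver, so the fasted wild-type arrays were the lowest and the Cnot3+/- arrays lay between. The fasting difference was -0.68 (SE 0.12, limma adjusted p = 0.0228). Ddx58, the RIG-I gene, differed by -0.31 (SE 0.17), Dhx58, which encodes the regulatory sensor LGP2, by -0.09 (SE 0.12), and Trim25, a ubiquitin ligase for RIG-I, by 0.28 (SE 0.18), none of them past the test. The dimmest of the 3 Trim25 probe sets differed by 1.10, from 6.83 and 7.19 in fed to 7.85 and 8.37 in fasted wild-type liver (limma adjusted p over all probe sets = 0.0741). The brightest Trim25 probe set, which represents the gene here, and the other one differed by 0.28 and 0.27.

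Among the effectors, Rsad2, which encodes viperin, an enzyme that makes a chain-terminating nucleotide, rose. It read 7.47 and 7.38 in fed liver, 8.36 and 8.10 in fasted wild-type and 8.69 and 8.49 in fasted Cnot3+/- liver. The groups are in that order without overlap. The fasting difference was 0.81 (SE 0.14, limma adjusted p = 0.0252), and the other probe sets of Rsad2 gave 0.97 and 0.80. Bst2, the tetherin that holds budding virions at the cell surface, read 10.71 and 11.08, then 10.22 and 10.16, then 10.18 and 10.43. Its difference of -0.71 (SE 0.16, adjusted p = 0.0541) missed the threshold, and both fed arrays lie above all 4 fasted arrays. The call was made with arrays centred by their brighter genes (limma adjusted p = 0.045) and under cyclic loess (0.0462). It was not made without dim genes, with means over probe sets or without probe sets shared between transcripts. Nor was it made with a variance trend or with only the 2 groups compared. With single arrays left out the Bst2 difference ran from -0.89 to -0.52. The exonuclease gene Isg20 differed by 0.43 (SE 0.25), and Rtp4, Parp14, Xaf1, Mx2 and the dim Mx1 by -0.24 to 0.06. The Mx1 allele of C57BL/6J mice is defective.

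Members of the OAS family make the oligoadenylates that activate RNase L, or are related to those that do. Oasl1, which limits Irf7 translation, read 7.56 and 8.79 in fed liver, 7.53 and 7.35 in fasted wild-type and 7.35 and 7.23 in fasted Cnot3+/- liver. Fed array 2 alone is high, and the fasting difference of -0.74 had an SE of 0.35 (adjusted p = 0.314). With fed array 2 left out the difference of Oasl1 was -0.12 (limma adjusted p = 0.84), and with fed array 1 left out it was -1.36 (0.0182), so its size turns on the high fed array. Oas1a, Oas2, Oas3 and Oasl2 had fasting differences from -0.22 to 0.17. Usp18, which removes Isg15 from proteins and blocks signalling at Ifnar2, read 7.22 and 7.43, then 7.97 and 7.44, with a fasting difference of 0.38 (SE 0.21, adjusted p = 0.41).

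Ifi35, an interferon-induced leucine zipper protein, read 11.16 and 11.34 in fed, 10.71 and 10.64 in fasted wild-type and 11.24 and 11.03 in Cnot3+/- liver. Its fasting difference of -0.57 (SE 0.13, adjusted p = 0.0592) did not pass, and its other probe sets gave -0.24 and -0.38. The IFIT genes, whose proteins bind foreign RNA ends, differed by 0.38 for Ifit1, -0.17 for Ifit2 and 0.13 for Ifit3. Ifit1 was high on fasted wild-type array 1 at 7.10 and not on array 2 at 6.22, and its SE was 0.29.

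The interferon-induced GTPases, which attack the vacuoles of intracellular pathogens, had 5 of 5 fasting differences below 0, none past the test. Of all genes, 54.7% had a fasting difference above 0. Gbp3 read 6.94 and 6.90 on the fed, 6.40 and 6.24 on the fasted wild-type and 7.43 and 6.79 on the Cnot3+/- arrays, a fasting difference of -0.59 (SE 0.21, adjusted p = 0.171). With the spread taken from the 4 wild-type arrays alone limma gave Gbp3 an adjusted p of 0.0459. Gbp2 read 6.42 and 6.46, then 5.77 and 6.25, then 6.49 and 6.19, a fasting difference of -0.43 (SE 0.19). Igtp, Irgm1 and Iigp1 differed by -0.23, -0.11 and -0.08. The chemokine Cxcl10, which attracts activated T cells, differed by -0.18 (SE 0.19).

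The 3 fasting calls were lost when any one of the 4 wild-type arrays was left out, while the differences kept their sign. For Ifnar2 the adjusted p was 0.0819 without fed array 1, 0.0602 without fed array 2, 0.11 without fasted wild-type array 1 and 0.121 without fasted wild-type array 2. For Rsad2 the same values were 0.0817, 0.119, 0.171 and 0.0729, and for Ifih1 they were 0.0816, 0.109, 0.129 and 0.15. The median difference of the members moved from -0.12 to 0.011 without fed array 2, and 17 of 36 differences were then below 0. Fed array 2 held the highest of the 6 levels for 12 of the 36 members and fed array 1 for 1. The numbers of genes called over the whole array fell as well, from 913 to between 137 and 458. In 29 of 36 members (80.6%) the 95% interval of the fasting difference lay within a doubling or halving, against 90.0% of all genes.

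**Figure D2:**
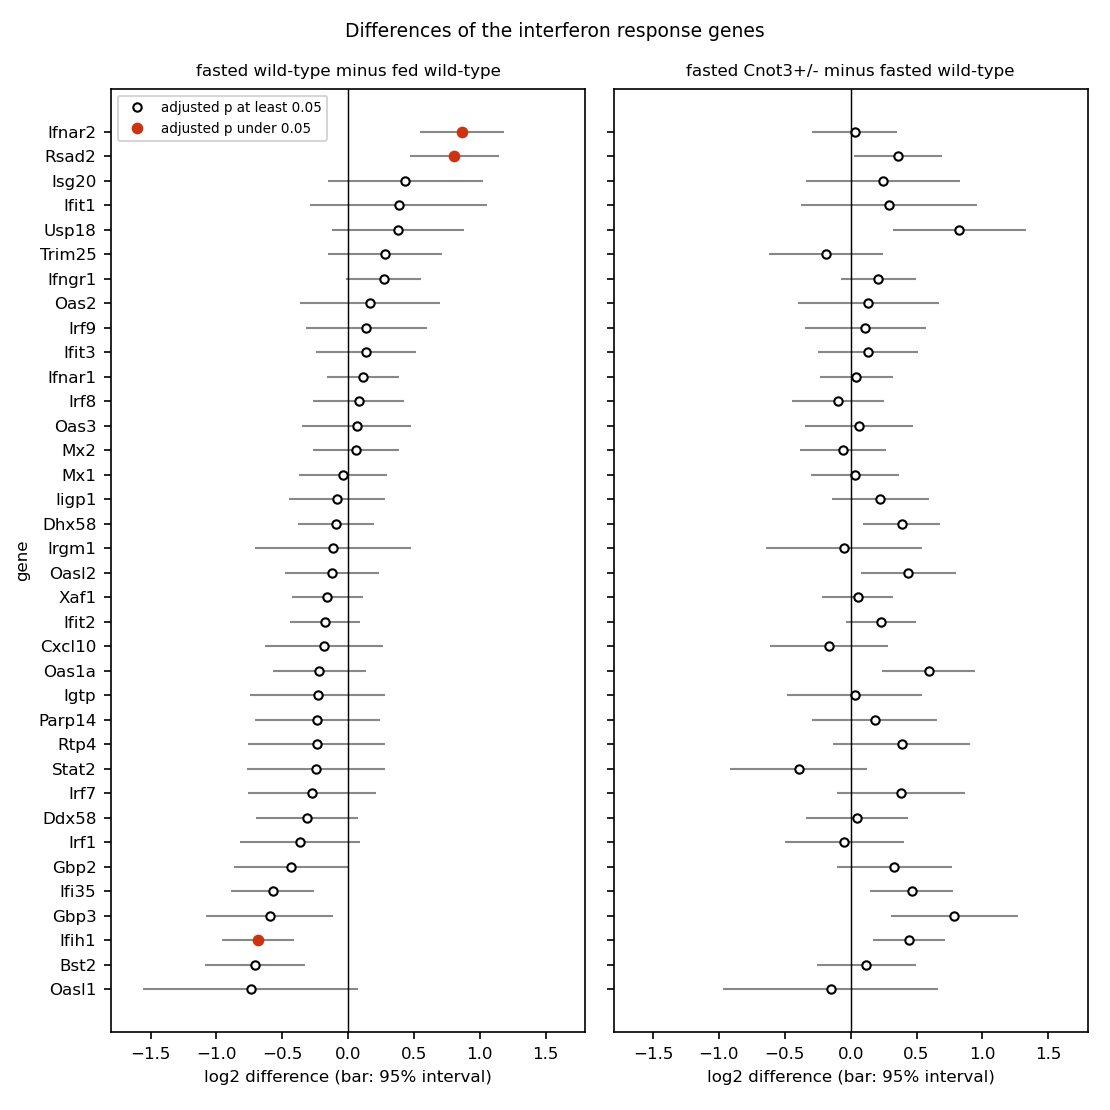
Log2 differences of the 36 members (points) with 95% intervals (bars), for fasting on the left and genotype on the right, both ordered by the fasting difference. Filled points mark an adjusted p under 0.05, which Ifnar2, Rsad2 and Ifih1 reach on the left and no gene reaches on the right; both panels use the fasted wild-type arrays, so they are not independent.

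The second comparison sets fasted Cnot3+/- mice against fasted wild-type mice. No member passed the test. The members leaned upward on the arrays labelled Cnot3+/-: 28 of 36 differences were above 0, against 49.6% of all genes, with a median of 0.13 (log2) against -0.00 over all genes. The largest differences were those of the deconjugase Usp18, the GTPase Gbp3 and the oligoadenylate synthetase Oas1a, from 1.51-fold to 1.77-fold. None can be called, as limma called 0 of 18193 genes (0% called), with 1011 genes at an unadjusted p under 0.05 and the smallest adjusted p among the members at 0.863.

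Of the 36 members, 8 had an unadjusted p under 0.05 and all 8 were higher on the Cnot3+/- arrays, which is 22.2% of the members. Of all genes 5.56% had such a p, 3.30% higher and 2.25% lower. The 8 members were Oas1a, Usp18, Gbp3, Ifih1, Ifi35, Dhx58, Oasl2 and Rsad2. For Ifi35, Dhx58 and Rsad2 this holds on the brightest probe set only. Their other probe sets were also higher but did not reach that threshold. These differed by 0.01 and 0.45 for Rsad2, 0.13 and 0.26 for Ifi35, and 0.31 and 0.22 for Dhx58, where both are dim. The remaining members of the 8 have a single probe set each. Usp18 read 7.97 and 7.44 in wild-type and 8.73 and 8.33 in Cnot3+/- liver after the fast, and both of the latter lie above all 4 wild-type arrays. The difference was 0.83 (SE 0.21, 95% interval 0.32 to 1.33, limma adjusted p = 0.863). Oas1a read 7.73 and 7.38 in fed, 7.32 and 7.35 in fasted wild-type and 8.01 and 7.84 in Cnot3+/- liver, a genotype difference of 0.59 (SE 0.15, adjusted p = 0.863). Here too the Cnot3+/- arrays are the highest of the 6.

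Gbp3 differed by 0.79 (SE 0.21), Ifi35 by 0.46 (SE 0.13) and Ifih1 by 0.44 (SE 0.12) between the genotypes. All 3 were lowest on the fasted wild-type arrays. Those arrays enter both comparisons, with opposite sign, so their fasting differences of -0.59, -0.57 and -0.68 and their genotype differences are not separate observations. Dhx58 read 7.41 and 7.45 in fed, 7.34 and 7.32 in fasted wild-type and 7.62 and 7.83 in Cnot3+/- liver, a difference of 0.39 (SE 0.12). Oasl2, a dim gene, read 5.52 and 5.44, then 5.48 and 5.24, then 5.64 and 5.95, a difference of at least 0.44. Rsad2 differed by 0.36 (SE 0.14). Ifit2, another dim gene, was lowest in fasted wild-type liver (4.78 and 4.86) and highest in Cnot3+/- liver (5.09 and 5.01). Its difference read 0.23, but both group means lie under 5.62, so the size is not known.

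None of the receptor chains or transcription factors had an unadjusted p under 0.05 for genotype in the limma fit. On their brightest probe sets Ifnar2 and Ifnar1 differed by 0.03 and 0.04, with 95% intervals from -0.29 to 0.35 and from -0.23 to 0.32. The dimmer probe sets differed by 0.21 (SE 0.12) and 0.44 (SE 0.21) for Ifnar2 and by 0.28 (SE 0.36) for Ifnar1. The intervals therefore belong to the brightest probe sets only. Ifngr1 differed by 0.21. Irf7 differed by 0.38 (SE 0.21) and Irf9 by 0.11, while Stat2 differed by -0.39 (SE 0.22), Irf8 by -0.10 and Irf1 by -0.05. The other Irf8 probe set, with a mean level of 6.75 against 6.90, differed by 0.28, so the direction for Irf8 is not settled. The other Stat2 probe set differed by -0.19. Stat2 and Trim25 (-0.19) were the members whose Cnot3+/- arrays both lay under the fasted wild-type arrays. Without overlap, 10 members were higher and 2 lower (27.8% and 5.56%), against 17.5% and 18.5% of all genes. For 34 of 36 members the 95% interval lay within a doubling or halving, the exceptions being Usp18 and Gbp3, against 96.6% of all genes.

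**Figure D3:**
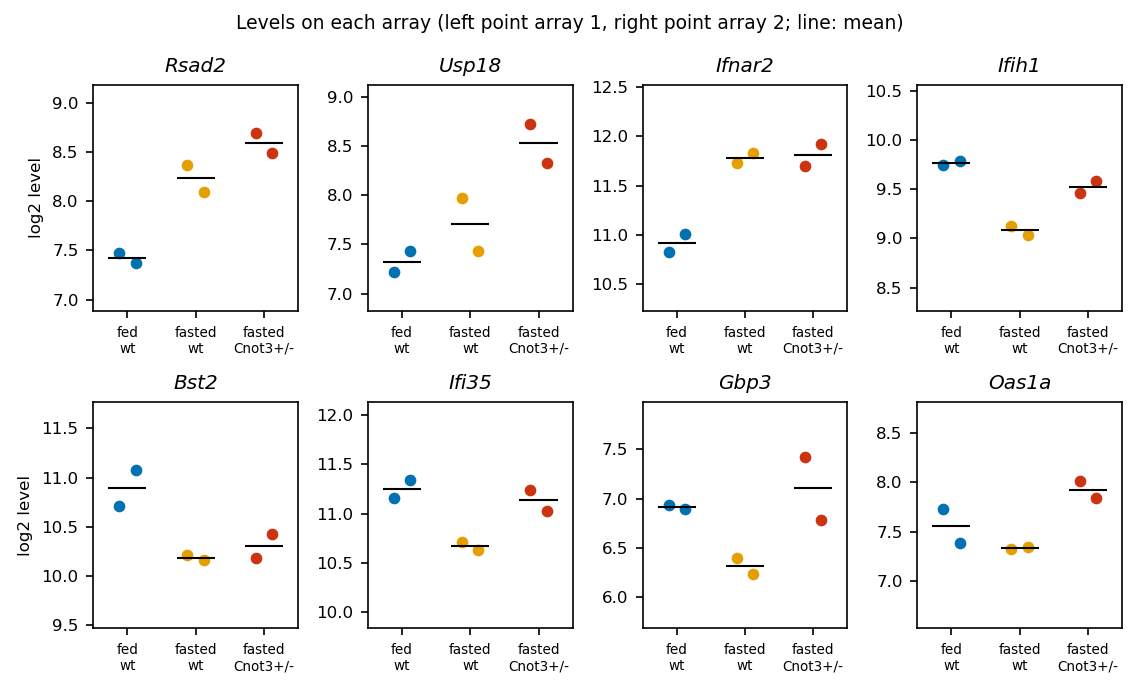
Log2 levels of 8 members on each array, with array 1 on the left and array 2 on the right of each group and a line at the group mean; each panel spans the same number of log2 units. Rsad2 and Ifnar2 are higher on all fasted arrays, Bst2 is lower on them, and Ifih1, Ifi35 and Gbp3 are lowest in the fasted wild-type group.

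The upward lean was larger on the first Cnot3+/- array. With that array alone for the genotype the members' median difference was 0.25 and 27 of 36 were above 0, and with the second array alone the median was 0.077 and 23 were above 0. After centring on the brighter genes 21 of 36 were above 0 with a median of 0.06, and after cyclic loess 25 of 36 with a median of 0.11. The first Cnot3+/- array held the highest of the 6 levels for 15 of the 36 members and the lowest for 0. Among its highest values were Usp18 at 8.73, Gbp3 at 7.43, Rsad2 at 8.69 and Oas1a at 8.01. Of the 36 members, 26 were higher on the first than on the second Cnot3+/- array, with a median gap between these arrays, in either direction, of 0.28, against 0.17 over all genes. The first array was also the higher for 24 of 36 members in fasted wild-type liver, where the median gap was 0.14, as over all genes. In fed liver it was the higher for 11 of 36. Fasted wild-type array 2, which enters the genotype comparison, held the lowest of the 6 levels for 12 of the 36 members. Members with and without the response element core before their start are set side by side here, with no test. The 12 measured members with it had medians of -0.20 for fasting (4 above 0) and 0.12 for genotype (9 above 0). The 16 without it had -0.14 (7 above 0) and 0.08 (12 above 0).

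Macrophage markers and class II genes were also high on the first Cnot3+/- array. In a list of 15 macrophage and Kupffer cell markers, which include Adgre1, Clec4f, Csf1r, Cd163 and Marco, 15 of 15 genotype differences were above 0 with a median of 0.44, and 13 of 15 markers were highest on the first Cnot3+/- array. None of the 15 was dim, and 0 of 15 passed in either the fasting or the genotype comparison. After the fast 13 of 15 differences were above 0 with a median of 0.37, and against fed liver 7 of 15 markers were called higher on the Cnot3+/- arrays (46.7%, against 3.88% of all genes). These were Marco, Cd163, C1qa, C1qb, C1qc, Vsig4 and Lyz2, with log2 differences from 0.70 to 1.78. Their summed level on the linear scale ran from 8039.8 to 9477 in fed and from 10746 to 11537 in fasted wild-type liver. It was 18244 on the first and 12903 on the second Cnot3+/- array. In bulk tissue more cells of a type and more RNA per cell cannot be told apart. The 6 measured class II genes, among them H2-Ab1, H2-Eb1, Cd74 and H2-Aa, were all highest on the first Cnot3+/- array. H2-Ab1 read 7.05 and 7.53 in wild-type and 8.61 and 7.32 in Cnot3+/- liver after the fast. The summed level of the 10 measured lymphocyte markers ran from 550.4 to 576 over all arrays, 5 of the 10 being dim. The 6 neutrophil markers ran from 207.9 to 249 with 4 dim, and the 6 dendritic cell markers from 306 to 336 with 3 dim. Of the 8 endothelial markers, 5 had their lowest level on the first Cnot3+/- array, with a median deviation of -0.19, and the summed level ran from 3176 to 3690.4 over all arrays. The endothelial marker Lyve1 rose after the fast (log2 1.58, SE 0.17, limma adjusted p = 0.00456) and was called higher against fed liver too (1.90, adjusted p = 0.00242). The endothelial list as a whole did not follow Lyve1. Its fasting differences were above 0 for 5 and below 0 for 3 of 8, from -0.52 to 1.58 with a median of 0.05. Against fed liver 3 were above and 5 below 0, from -0.96 to 1.90 with a median of -0.05. Of the 5 stellate cell and fibroblast markers, 3 fell after the fast and 1 rose, with summed levels from 3674 to 4964. The differences were -2.32 for Col3a1, -1.20 for Lrat, -0.65 for the dim Col1a1 and 0.61 for Dcn. Against fed liver Col3a1 and Lrat were called lower (limma adjusted p = 0.0108 and 0.00712) and Dcn higher (0.0256) on the Cnot3+/- arrays, and between the genotypes no endothelial or stellate marker passed. The part of the macrophage, endothelial and stellate markers in the members' differences was not tested.

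**Figure D4:**
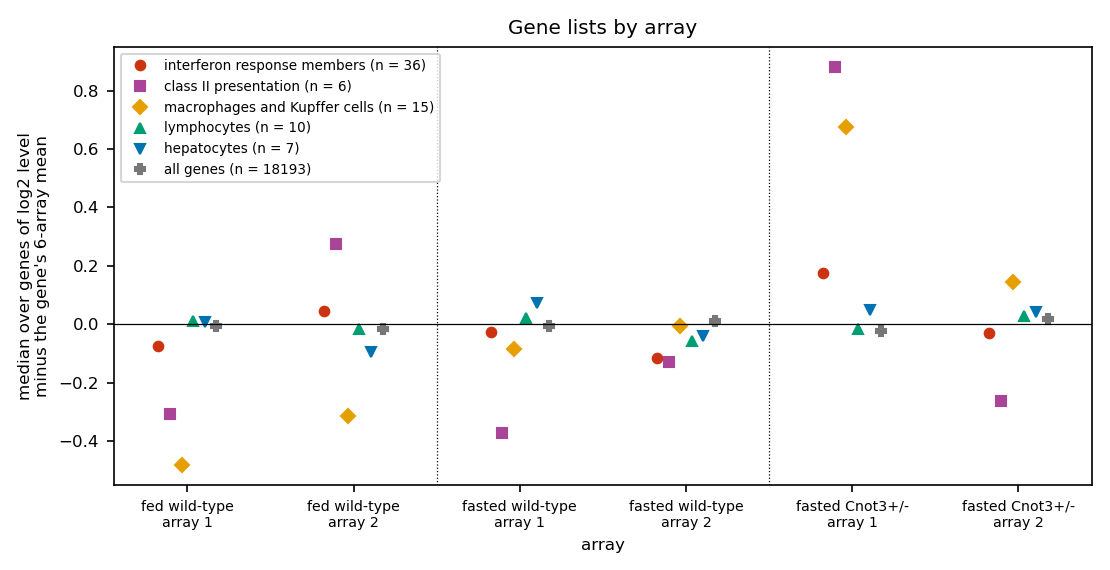
Median over the genes of a list of the log2 level minus the gene's 6-array mean, for each of the 6 arrays. On Cnot3+/- array 1 the members reach 0.17, the macrophage markers 0.67 and the class II genes 0.88, while lymphocyte and hepatocyte markers stay near 0 on every array; class II genes are also raised on fed array 2, at 0.28.

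The third comparison sets fasted Cnot3+/- liver against fed wild-type liver, so diet and genotype differ together and the fed arrays are those of the fasting comparison. Rsad2, Usp18 and Ifnar2 were called higher, and no member was called lower, although 15 of 36 differences were below 0. These 3 of 36 members compare with 3.88% of all genes called higher and 3.68% called lower. Rsad2 differed by 1.17 (SE 0.14, 2.25-fold, limma adjusted p = 0.00556), Usp18 by 1.20 (SE 0.21, 2.30-fold, adjusted p = 0.0194) and Ifnar2 by 0.90 (SE 0.14, 1.86-fold, adjusted p = 0.0116). The call for Rsad2 was made with each of the 6 arrays left out in turn, with adjusted p values from 0.0128 to 0.0363. Usp18 was not called without fed array 1 (adjusted p = 0.0913), fed array 2 (0.0638) or Cnot3+/- array 1 (0.0718), and Ifnar2 was not called without fed array 1 (0.0586) or Cnot3+/- array 2 (0.0516). Bst2 differed by -0.59 (limma adjusted p = 0.0763, and 0.0464 after centring), Ifngr1 by 0.48 (0.0611, and 0.0465 among gene means over probe sets), Isg20 by 0.68 (0.171) and Stat2 by -0.64 (0.149). The median over the 36 members was 0.10 against 0.00 over all genes. Differences were above 0 for 21 of 36, against 50.5% of all genes. Without overlap 12 members were higher and 7 lower (33.3% and 19.4%), against 24.6% and 23.4% of all genes, and for 29 of 36 the 95% interval lay within a doubling or halving, against 88.4%. The median was -0.10 without Cnot3+/- array 1 and -0.015 without probe sets shared between transcripts, which leaves out Ifnar2, Gbp3 and several other members.

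Beyond the 39 listed genes, 98 of 117 further genes of interferon biology were measured. After the fast 0 of 98 rose and 4 fell (4.08%), against 1.87% and 3.15% of all genes, so the share is near that of the genes at large. The 4 were Ikbke, Psmb10, Ube2l6 and Sp100. Ikbke, a kinase that activates interferon regulatory factors, fell from 8.98 and 8.95 to 7.97 and 7.92 (log2 -1.02, SE 0.13, limma adjusted p = 0.00742). Psmb10, an immunoproteasome subunit, fell from 10.52 and 10.54 to 9.37 and 9.65 (-1.02, SE 0.13, adjusted p = 0.00872). Ube2l6, which conjugates Isg15, fell from 7.67 and 8.07 to 6.88 and 7.15 (-0.85, SE 0.18, adjusted p = 0.0431), and the nuclear body gene Sp100 from 6.06 and 5.94 to 5.16 and 5.30 (-0.77, a lower bound in size since the gene is dim, adjusted p = 0.0179). With single wild-type arrays left out, Ikbke was not called without fasted wild-type array 1 (0.0708) or array 2 (0.0647), and Psmb10 not without fed array 2 (0.0548) or fasted wild-type array 1 (0.079). Sp100 and Ube2l6 lost the call without any one of the 4 wild-type arrays, with adjusted p values up to 0.141 and 0.247. The 98 genes had a median fasting difference of -0.11.

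Of the interferons themselves, 8 of 15 were measured and 7 of those were dim. The 3 with the smallest p, Ifna2, Ifna11 and Ifna1, did not pass for fasting or genotype. In receptor signalling 0 of 12 genes passed. Ifngr2, the second chain of the interferon gamma receptor, read 7.31 and 7.29 in fed, 8.06 and 8.61 in fasted wild-type and 7.20 and 8.18 in Cnot3+/- liver, a fasting difference of 1.03 (SE 0.31, adjusted p = 0.126). The repressor Irf2 differed by 0.71 (SE 0.24) between the genotypes and the dim receptor chain Ifnlr1 by 0.24 after the fast. None of the 6 class II genes passed, with fasting differences from -0.34 to 0.16. Between the genotypes 0 of the 98 genes passed, 63 differences (64.3%) were above 0, against 49.6% of all genes, and the median was 0.07. Against fed liver, 4 of 98 were called higher and 4 lower on the Cnot3+/- arrays (4.08% each), near the 3.88% and 3.68% of all genes. These are named after their values were seen: Tlr7 (dim), Ticam1, Ifi27 and Lgals3bp were higher, and Ifna2 (dim), Sp100 (dim), Ube2l6 and Psmb10 lower. Each of these 8 lost its call with at least 1 of the 6 arrays left out.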

How the data were processed

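The authors deposited 1 log2 level per probe set and array. RMA is the tool named in the submitters' processing notes, without a version. Per the labels' protocols, biotinylated cRNA came from 10 ug of total RNA. The levels were used without further normalisation. Of 45101 probe sets, 64 are controls, 34945 name 1 gene, 932 several and 9160 none, and each of 18193 genes was read on its brightest single-gene probe set.

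All 6 arrays entered 1 limma 3.58.1 fit on R 4.3.3 with 3 group means (3 residual and 4.24 prior degrees of freedom). P values were adjusted by Benjamini-Hochberg over all genes within a comparison, with 0.05 as threshold, and SE stands for limma's moderated error of a log2 difference. The labels do not say how cages or litters were shared, so p values measure the spread between these arrays, and 2 arrays a group limit the precision. The script was tested on simulated data with 100 changes of each size, of which the fasting comparison recovered 65% at 2-fold and 95% at 4-fold. Among the unchanged genes 4 were called for fasting and 11 for genotype. The simulated noise was drawn for each gene separately, so it holds no shift that many genes of an array share. Members and lists were chosen with earlier results of these data known. Every member is named. It is given on each array where it passed, was among the 10 smallest p values for fasting or genotype, or is a receptor or transcription factor; of pathway lists, genes that passed for fasting or genotype, or else up to 3 with the smallest p, are named. Marker lists are given by counts, ranges and medians, with the markers that passed. Alternatives were cyclic loess, centring on brighter genes, no dim genes, other probe set choices, a variance trend, 2-group fits, a replicate block and leaving out each array. Figures used matplotlib 3.10.9.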

Additional observations from a re-analysis of the deposited data

How the results depend on the processing

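With 2 arrays a group, single arrays decided most counts, and an exact permutation test of 2 against 2 arrays cannot go below p = 0.333. With each array left out in turn, where a group of 1 is assumed to vary like the others, members called for fasting numbered 0 to 4 and all genes called 137 to 1033. For genotype, 0 to 2 of all genes and 0 members were called. For Cnot3+/- against fed liver, 2 to 3 members and 597 to 929 genes were called. The members' median difference ran from -0.13 to 0.011 for fasting, from 0.077 to 0.25 for genotype and from -0.10 to 0.16 for Cnot3+/- against fed liver. Using only the 2 groups compared, 857 in place of 1375 genes were called in the last comparison. Without probe sets shared between transcripts the members' median in that comparison was -0.015. This setting leaves out Ifnar2, Gbp3, Irf1, Irf7, Irf9, Isg20, Mx1, Oasl2 and Trim25, so the median is over fewer members. For single genes, 492 recomputed values kept their direction and side of the threshold, 69 lost a call and 11 gained one, and no sign reversed among those called. Many of the 492, among them all for genotype, belong to results not called in the main fit, which had no call to lose. The 492 therefore do not measure how stable the calls were. The causes were not tested.

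Replicate numbers were not shown to pair the mice: differences between arrays 1 and 2 correlated across genes at 0.0447 for fed with fasted wild-type, -0.00929 for fed with Cnot3+/- and 0.454 for fasted wild-type with Cnot3+/-. With a replicate block, 1206 genes and 4 members were called for fasting, the added member being Bst2 (limma adjusted p = 0.0372). For genotype 0 of each were called, and against fed liver 1708 genes and 4 members, the added member being Isg20 (0.0311). The block left the median differences at -0.12, 0.13 and 0.10. It fits the same replicate effect in all 3 groups, so an effect shared by the fasted arrays only was not tested.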
